A study of Mus musculus with 16 samples.

Results

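Receptors for the myeloid colony-stimulating factors, together with the ligand *Csf1*, were followed in kidney and liver RNA-seq libraries of aged mice. The 7 genes were *Csf2rb*, *Csf2rb2*, *Csf2ra*, *Il3ra*, *Csf3r*, *Csf1r* and *Csf1*, out of 24984 genes in the count tables, and each of the 7 passed the filter on low counts in both tissues. They were chosen by gene family after the kidney value of *Csf2rb* in this comparison of shFos with NT was known. Their kidney changes are therefore a description, given without a test. The mice were aged female C57BL/6 animals injected intravenously with an AAV8 (adeno-associated virus) vector encoding a hairpin RNA that targets *Fos* (shFos) or no mouse gene (NT). Their labelled age was 24 months, and the study's methods give that age at injection and collection 3 months later. There were 4 libraries for each of the 4 groups, namely kidney NT, kidney shFos, liver NT and liver shFos. The vector was given to the whole animal, and the cells that took it up were not measured in these data.

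Counted reads per library ranged from 14437742 to 15015012 in NT kidneys and from 14194543 to 15534665 in shFos kidneys. They ranged from 17304620 to 18300277 in NT livers and from 16652150 to 17651900 in shFos livers. Levels of single libraries are given in CPM, the counted reads set to a shared library size by TMM factors from the 16 libraries together. On this scale 3 counts, the most that a count of 0 allows, are between 0.138 and 0.272 CPM, a limit that covers counting error only. Libraries of the same group differed by more than counting noise, and replicate 4 of the NT group stood apart in both tissues. In the kidney the chi-square of its counts against the other NT libraries, per degree of freedom, was 63.6 to 67.7, and 7.17 to 13 between the rest. In the liver the corresponding values were 334 to 431, and 40.7 to 60.2. Between shFos libraries they were 21.98 to 58.55 in the kidney and 19.88 to 72.49 in the liver. The labelled tissues carried their own markers. The kidney tubule gene *Umod* was 3467 ± 68.1 CPM in NT kidneys and 4086 ± 734 CPM in shFos kidneys (SD, n = 4 each), and summed hepatocyte markers, with *Alb* the most abundant, were at least 60490 CPM in each liver library and at most 316 CPM in each kidney library.

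Colony-stimulating factors are secreted proteins that keep myeloid cells alive and drive their growth and maturation. M-CSF, encoded by *Csf1*, acts through the receptor tyrosine kinase CSF1R, on which tissue macrophages such as the Kupffer cells of the liver depend. GM-CSF and IL-3 act through a ligand-specific alpha chain (*Csf2ra* or *Il3ra*) and a signalling beta chain (*Csf2rb*, with another, IL-3-specific copy, *Csf2rb2*, in the mouse), whereas G-CSF acts on neutrophils and their precursors through the single-chain receptor *Csf3r*.

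*Fos*, the target of the hairpin, was 4.79, 3.74, 3.02 and 3.77 CPM in NT kidneys 1 to 4 and 1.87, 2.99, 2.75 and 1.64 CPM in shFos kidneys 1 to 4. Each shFos kidney was below each NT kidney, although NT kidney 3 and shFos kidney 2 lay close together. In the livers *Fos* was 1.54, 3.33, 5.26 and 4.06 CPM in the NT group and 2.26, 2.10, 3.85 and 1.90 CPM in the shFos group, and the groups overlapped. On the log2 scale shFos minus NT was -0.73 in the kidney, with a standard error (SE) of 0.25, and -0.47 in the liver (SE 0.38), where it ranged from -0.75 to -0.23 with 1 library left out. The quasi-likelihood test of edgeR, adjusted by Benjamini-Hochberg over all genes tested, gave 0.0955 and 0.778, so neither passed the 0.05 threshold, while DESeq2 gave 0.0425 in the kidney.

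The beta chain genes are near-identical neighbours on chromosome 15 of mm10. *Csf2rb* (ENSMUSG00000071713.6) lies on the + strand from 78325752 to 78353847 and *Csf2rb2* (ENSMUSG00000071714.7) on the - strand from 78282507 to 78305721, 20030 bases apart. Their coding sequences matched at 2503 of 2628 aligned positions, or 95.2%, and the longest run of identical bases was 242. Of all 150-base windows of the longest *Csf2rb* transcript, the read length in the study's methods, 3.47% occurred unchanged in *Csf2rb2*, and of 50-base windows, as for reads cut short by trimming, 18.4%. A read that lies wholly in such a window cannot be placed on either gene unless its mate can. The first 120 bases of that longest run read the same in both coding sequences (bases 2083 to 2202 of each) and show what the counting could not separate.
Csf2rb and Csf2rb2: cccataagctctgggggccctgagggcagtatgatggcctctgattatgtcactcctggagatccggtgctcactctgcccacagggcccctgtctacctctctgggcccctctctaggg
The 60-base window with the most differences, 13, shows what lets other reads be placed, with the differing bases in capitals (coding bases 304 to 363 of *Csf2rb* and 307 to 366 of *Csf2rb2*).
Csf2rb: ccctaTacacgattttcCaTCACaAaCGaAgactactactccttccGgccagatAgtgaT
Csf2rb2: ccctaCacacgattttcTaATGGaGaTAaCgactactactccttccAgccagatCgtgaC

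*Csf2rb* was lower in the shFos kidneys. It was 10.1, 12.7, 19.6 and 13.1 CPM in NT kidneys 1 to 4 and 7.05, 6.46, 7.39 and 6.55 CPM in shFos kidneys 1 to 4. NT replicate 3 was the highest, the 4 shFos kidneys were close together, and the groups did not overlap. The log2 fold change was -1.02 (SE 0.19). *Csf2rb2* was 6.81, 10.1, 7.62 and 13.6 CPM in the NT kidneys and 5.47, 4.97, 4.05 and 3.66 CPM in the shFos kidneys. The groups did not overlap here either, with NT replicate 4 the highest, and the log2 fold change was -1.08 (SE 0.24). With the reads of both paralogs summed, so that their split could not matter, the value was -1.04.

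*Csf3r* (ENSMUSG00000028859.14, chromosome 4), the G-CSF receptor, was 4.13, 7.43, 4.79 and 5.43 CPM in the NT kidneys and 3.18, 2.80, 3.75 and 2.46 CPM in the shFos kidneys. These groups did not overlap, though NT replicate 1 and shFos replicate 3 were near each other, and the log2 fold change was -0.84 (SE 0.23). *Csf2ra* (ENSMUSG00000059326.7, chromosome 19), the GM-CSF alpha chain, was 25.6, 37.4, 22.6 and 14.2 CPM in the NT kidneys and 22.7, 9.64, 10.7 and 11.3 CPM in the shFos kidneys. Its groups overlapped through shFos replicate 1, which was about as high as NT replicate 3, while the other 3 shFos kidneys were below each NT kidney. The log2 fold change was -0.88 (SE 0.34). *Il3ra* (ENSMUSG00000068758.8, chromosome 14), the IL-3 alpha chain, ranged from 3.26 to 6.62 CPM in the NT kidneys and from 2.79 to 3.60 CPM in the shFos kidneys, a slight overlap, with a log2 fold change of -0.61 (SE 0.24), which was -0.39 without NT replicate 2 and -0.35 with an offset for GC content.

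*Csf1r* and its ligand differed less. *Csf1r* was 103, 125, 113 and 53.4 CPM in the NT kidneys and 96.0, 94.5, 57.8 and 93.1 CPM in the shFos kidneys. Each group held a single low library, NT replicate 4 and shFos replicate 3, and the groups overlapped through NT replicate 4. At -0.22, the log2 fold change was smaller than its standard error of 0.26. It was -0.42 without NT replicate 4, -0.08 without shFos replicate 3 and -0.11 with the GC offset. *Csf1* (ENSMUSG00000014599.10, chromosome 3) ranged from 24.5 to 43.5 CPM in the NT kidneys and from 22.3 to 31.1 CPM in the shFos kidneys, which overlapped, with a log2 fold change of -0.30 (SE 0.18), or -0.11 without NT replicate 2 and -0.19 with the GC offset.

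Each of the 7 genes had a negative log2 fold change in the kidney, with a median of -0.84, while the median over the 14892 genes tested was 0.00225 and 49.7% of those were negative. The groups did not overlap, with shFos lower, for 3 of the 7 genes and for 6.94% of all genes tested. Over all kidney genes edgeR called 0% at an adjusted p under 0.05, with 4747 at an unadjusted p under 0.05, and DESeq2 called 8.30% lower and 11.4% higher. Leaving out shFos replicate 1 gave 4126 genes called with edgeR, and leaving out NT replicate 4 gave 3. Because the genes were chosen with this kidney comparison in view, nothing is read from these counts.

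**Figure D1:**
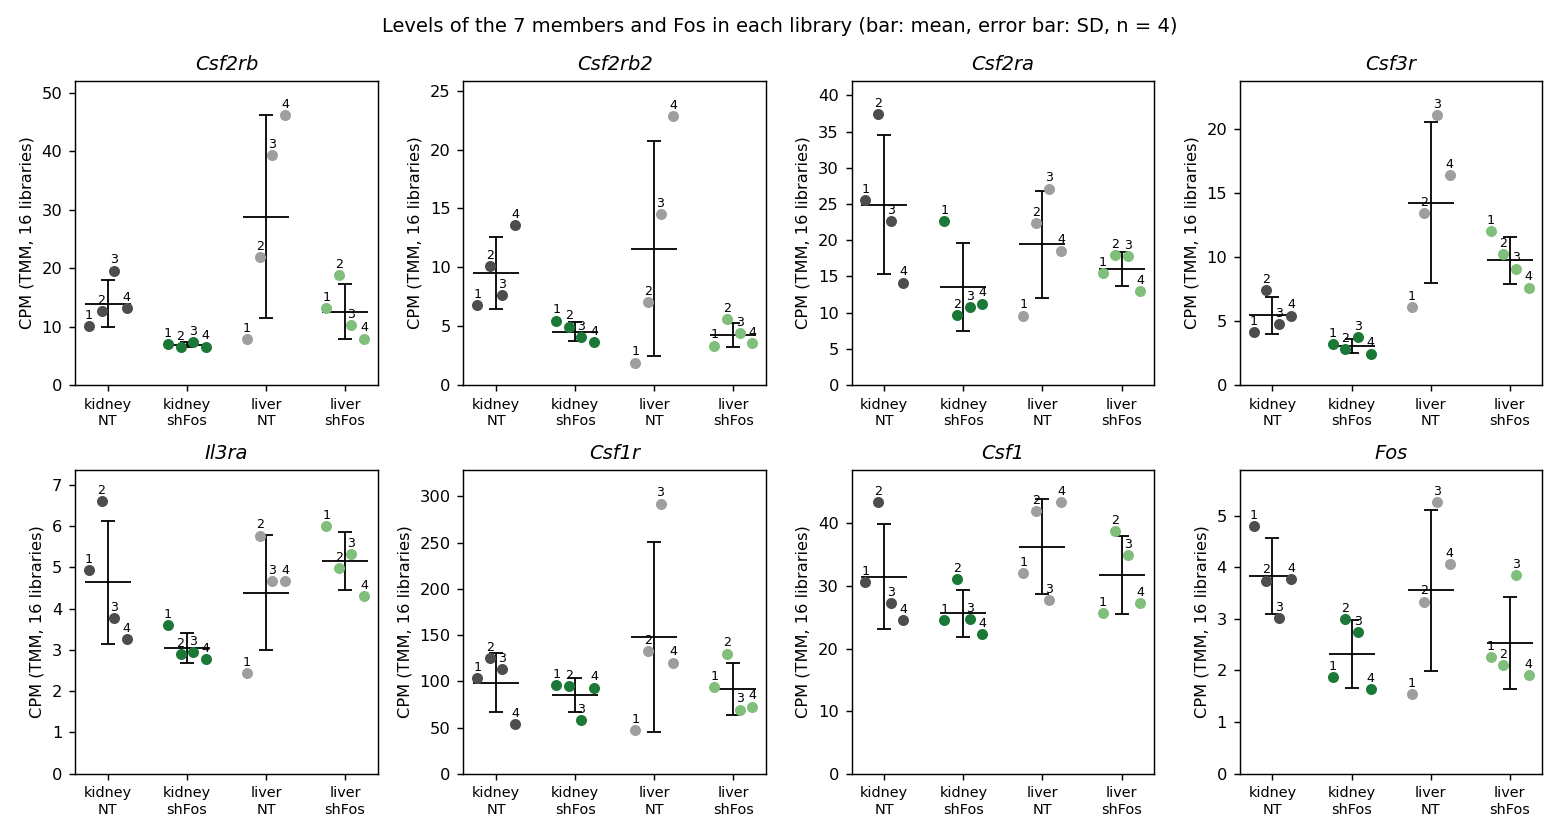
CPM (scaled counts, TMM over 16 libraries) of the 7 genes and of *Fos* in each library, with the tissue and vector on the horizontal axis; points are libraries labelled by replicate number, and the long bar and error bar are the mean and SD (n = 4). For *Csf2rb*, the shFos kidneys sit between 6.46 and 7.39 CPM below NT kidneys from 10.1 to 19.6 CPM, while NT livers spread from 7.88 to 46.2 CPM around the shFos livers.

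Immune cell markers were summed in the same libraries, since in bulk tissue fewer cells of a type and less RNA per cell cannot be told apart. The macrophage markers, 14 genes with *Lyz2* the most abundant, summed to 443, 670, 495 and 236 CPM in NT kidneys 1 to 4 and to 327, 476, 506 and 383 CPM in shFos kidneys 1 to 4. These groups overlapped widely, with NT replicate 4 the lowest of the 8, and *Clec4f*, a Kupffer cell marker, had at most 4 reads in any kidney library. Of 11 macrophage markers tested in the kidney, 8 were lower and 3 higher in the shFos group, and the median log2 fold change was -0.31. Neutrophil markers summed to at most 4.65 CPM in the kidneys except in NT replicate 4, where they were 19.6 CPM. Of the neutrophil list, 9 of 11 genes were too low to be tested in the kidney, and *Ly6g* had 0 reads in each kidney library except that one. *Csf3r* in that library, 5.43 CPM, was within the range of the other NT kidneys. Monocyte markers summed to between 31.7 and 41.0 CPM in the NT kidneys and between 31.8 and 50.4 CPM in the shFos kidneys. Of these 5 markers 2 were lower and 3 higher in the shFos group. DESeq2 called 1, *F13a1*, lower, against 8.30% of all genes, and edgeR called 0. *F13a1* was 10.4 ± 4.46 CPM in NT kidneys and 5.43 ± 2.21 CPM in shFos kidneys (SD, n = 4 each), with overlap. Endothelial markers were 287 to 344 CPM in the NT kidneys and 367 to 439 CPM in the shFos kidneys, without overlap. The share of all genes that were higher without overlap was not counted. Of the 8 endothelial markers 7 were higher and 1 lower. For these edgeR called 0, and DESeq2 called 2 higher, against 11.4% of all genes. The part of these cell types in the lower receptor levels was not tested.

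In the liver the NT group was widely spread for the same receptors. *Csf2rb* was 7.88, 21.9, 39.4 and 46.2 CPM in NT livers 1 to 4 and 13.2, 18.8, 10.2 and 7.95 CPM in shFos livers 1 to 4. The NT range contained the whole shFos range, with NT replicate 1 below each shFos liver and NT replicates 3 and 4 far above. The log2 fold change was -1.18 (SE 0.49, edgeR adjusted p = 0.731). *Csf2rb2* was 1.90, 7.07, 14.5 and 22.9 CPM in the NT livers and 3.35, 5.61, 4.42 and 3.56 CPM in the shFos livers. NT replicate 1 was again the lowest of the 8 and NT replicate 4 the highest, and the log2 fold change was -1.43 (SE 0.60, edgeR adjusted p = 0.731). For each of the pair, 3 of 4 NT livers were above the highest shFos liver. Without NT replicate 4, the log2 fold changes were -0.88 for *Csf2rb* and -0.89 for *Csf2rb2*.

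*Csf1r* (ENSMUSG00000024621.16), the most abundant of the receptors, was 47.4, 132, 292 and 120 CPM in NT livers 1 to 4 and 93.5, 130, 69.3 and 72.5 CPM in shFos livers 1 to 4. NT replicate 3 was far above the other 7 livers and NT replicate 1 the lowest, and the groups overlapped. The log2 fold change was -0.67 (SE 0.47, edgeR adjusted p = 0.762), and it was -0.12 without NT replicate 3. *Csf3r* was 6.07, 13.4, 21.1 and 16.4 CPM in the NT livers and 12.0, 10.2, 9.09 and 7.62 CPM in the shFos livers. Here too NT replicate 1 was the lowest and NT replicate 3 the highest, and the log2 fold change was -0.53 (SE 0.32, edgeR adjusted p = 0.742), or -0.28 without NT replicate 3. The log2 fold change of *Csf2ra* was -0.26 (SE 0.27), that of *Csf1* -0.18 (0.18) and that of *Il3ra* 0.25 (0.26), with overlapping groups for each. With 1 library left out these ranged from -0.48 to -0.06 for *Csf2ra*, from -0.29 to -0.09 for *Csf1* and from 0.05 to 0.40 for *Il3ra*.

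In the liver 0 of the 7 genes had an adjusted p under 0.05 with edgeR, as did 0% of the 13144 genes tested, while 2 of the 7 and 886 of all genes had an unadjusted p under 0.05. DESeq2 called 0 of the 7, against 0.166% of all genes called lower and 0.141% called higher. The groups did not overlap for 0 of the 7, against 1.86% of all genes with the shFos livers lower. The median log2 fold change of the 7 was -0.53, against -0.01 over all genes. Each of the 7 shFos ranges in the liver thus overlapped the NT range of the same gene.

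Some marker sums shared their highest or lowest liver with some of the receptors and others did not, without a test. Summed macrophage markers were 592, 1405, 2978 and 1551 CPM in NT livers 1 to 4 and 1129, 1400, 774 and 870 CPM in shFos livers 1 to 4. The highest and lowest of the 8 were NT replicates 3 and 1, the same libraries as for *Csf1r* and *Csf3r*, and *Clec4f* ran from 80.4 CPM in NT replicate 1 to 476 CPM in NT replicate 3. Each of the 14 macrophage markers was tested in the liver, 13 were lower in the shFos group, against 52.3% of all liver genes, and 0 passed an adjusted p of 0.05 with edgeR. Summed neutrophil markers, with *S100a9* the most abundant, were 45.5, 82.3, 22.2 and 260 CPM in the NT livers and 72.9, 10.4, 12.9 and 7.62 CPM in the shFos livers. They were highest in NT replicate 4, the library with the most *Csf2rb* and *Csf2rb2*. In that library monocyte markers summed to 89.5 CPM against 12.2 to 34.4 CPM in the other NT livers, and *Alb* took 2.82% of the counted reads against 9.87% to 14.9% in the other livers. The part of these cells and of this library in the liver values was not tested beyond leaving the library out.

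**Figure D2:**
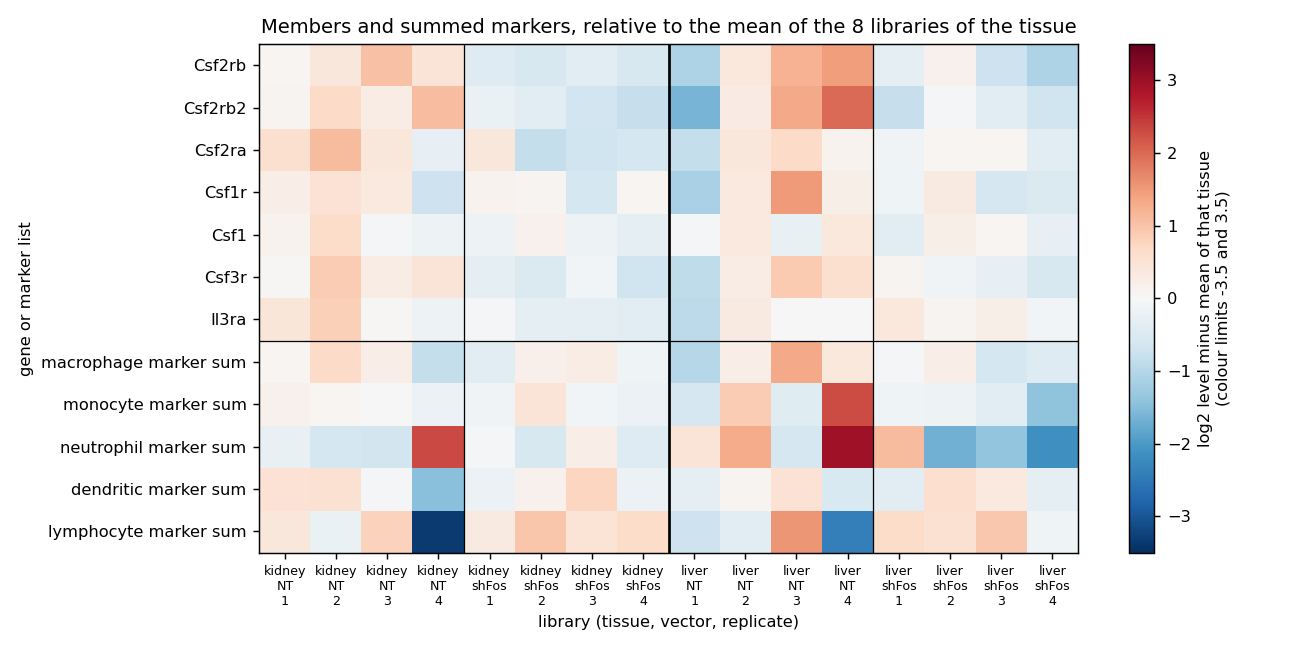
Level of each of the 7 genes and of 5 summed marker lists in each library (columns, by tissue, vector and replicate), coloured by the log2 difference from the mean of the 8 libraries of that tissue. *Csf1r* and the macrophage sum share their highest and lowest livers, NT replicates 3 and 1, and their highest and lowest kidneys, NT replicates 2 and 4. In the kidneys the macrophage sum (236 to 670 CPM in NT, 327 to 506 CPM in shFos) overlaps between the groups, while 8 of the 11 markers tested were lower and 3 higher with shFos. *Csf2rb*, whose kidney value was known when the genes were chosen, does not overlap. The part of macrophages in its level was not tested.

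The difference between the tissues in the change with shFos was estimated from 1 fit of the 16 libraries. It contains the kidney comparison in view of which the genes were chosen, so their values here are a description too. The kidney change minus the liver change was 0.15 for *Csf2rb* (SE 0.56), 0.34 for *Csf2rb2* (0.68), 0.45 for *Csf1r* (0.56), -0.13 for *Csf1* (0.27) and -0.32 for *Csf3r* (0.41), each smaller than its standard error. It was -0.63 for *Csf2ra* (0.46) and -0.86 for *Il3ra* (0.36). Leaving out a single library brought *Csf2ra* to -0.33 and *Csf3r* to -0.08. Over all 15421 genes edgeR called 0%, and 2482 had an unadjusted p under 0.05. DESeq2 called 343 genes in this comparison, and edgeR 1246 without kidney shFos replicate 1. The sign of the difference for *Csf2rb*, *Csf2rb2*, *Csf1r* and *Csf1* turned when a single library was left out. With same-numbered kidney and liver libraries taken as pairs, it was 0.01 for *Csf2rb* and 0.02 for *Csf2rb2*.

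**Figure D3:**
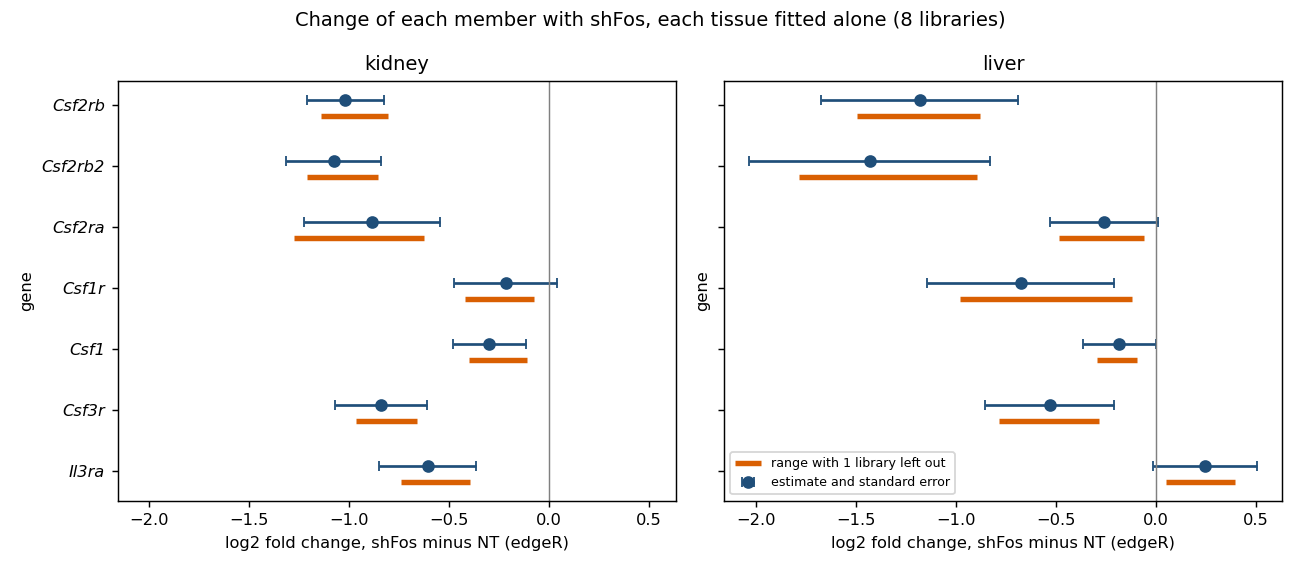
Log2 fold change (shFos minus NT) of the 7 genes in the kidney and the liver, each tissue fitted alone on 8 libraries; circles with error bars are the estimate and its standard error, and thick bars are the lowest to highest value when 1 library is left out. *Csf2rb* runs from -1.14 to -0.81 in the kidney and from -1.49 to -0.88 in the liver, and *Csf1r* in the liver from -0.98 to -0.12.

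Levels were compared between kidney and liver in a fit that averages the NT and shFos groups of each tissue. The kidney values of *Csf2rb* in view of which the genes were chosen enter this average. Its test is therefore not independent of that choice, and *Csf2rb* was not called with NT libraries alone. *Csf3r* was lower in the kidney, at 4.24 ± 1.63 CPM (SD, n = 8) against 12.0 ± 4.92 CPM (SD, n = 8) in the liver, and 7 of 8 kidneys were below the lowest liver. The log2 difference, kidney minus liver, was -1.56 (SE 0.21, edgeR adjusted p = 5.02e-06). *Csf2rb* was 10.4 ± 4.59 CPM (SD, n = 8) in the kidney and 20.7 ± 14.6 CPM (SD, n = 8) in the liver, a log2 difference of -0.99 (SE 0.28, edgeR adjusted p = 0.00473). Its paralog *Csf2rb2* had a log2 difference of -0.12 (SE 0.34). *Csf1r* had -0.37 (0.28), *Il3ra* -0.37 (0.18), *Csf1* -0.29 (0.13) and *Csf2ra* 0.03 (0.23), and none of these 5 had an adjusted p under 0.05. Without liver NT replicate 3 that of *Csf1r* was -0.09. Thus 2 of the 7 genes were called lower in the kidney in this fit, where 34.8% of all 15421 genes were called lower. *Csf1* was also called with the replicate number as a block within each vector group. In some fits with a library left out, *Csf1* and *Il3ra* were called.

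These directions depend on how the tissues are scaled. The 10 most abundant genes took 20.5% to 26% of the counted reads in the livers and 8.36% to 10.1% in the kidneys. Scaling by library size alone, an alternative added after the data were seen, moved the median log2 difference of all genes from 0.05 to 1.04. With TMM 6059 genes were called higher and 5368 lower in the kidney, with upper-quartile factors 6868 and 4510, and with library size alone 11971 and 1772. The difference of *Csf3r* then was -0.58 (edgeR adjusted p = 0.0289), that of *Csf2rb* was -0.02 (adjusted p = 0.96), and *Csf2rb2*, *Csf1r*, *Csf1* and *Il3ra* turned to higher in the kidney. Of these *Csf2rb2*, *Csf1* and *Il3ra* were then called higher, as was *Csf2ra*. Taken relative to the median gene, *Csf3r* was at -1.60 with TMM and -1.62 with library size alone, and *Csf2rb* at -1.03 and -1.06. With NT libraries alone, which leave out the shFos kidneys, the edgeR adjusted p of *Csf2rb* was 0.0777 at a log2 difference of -1.06.

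**Figure D4:**
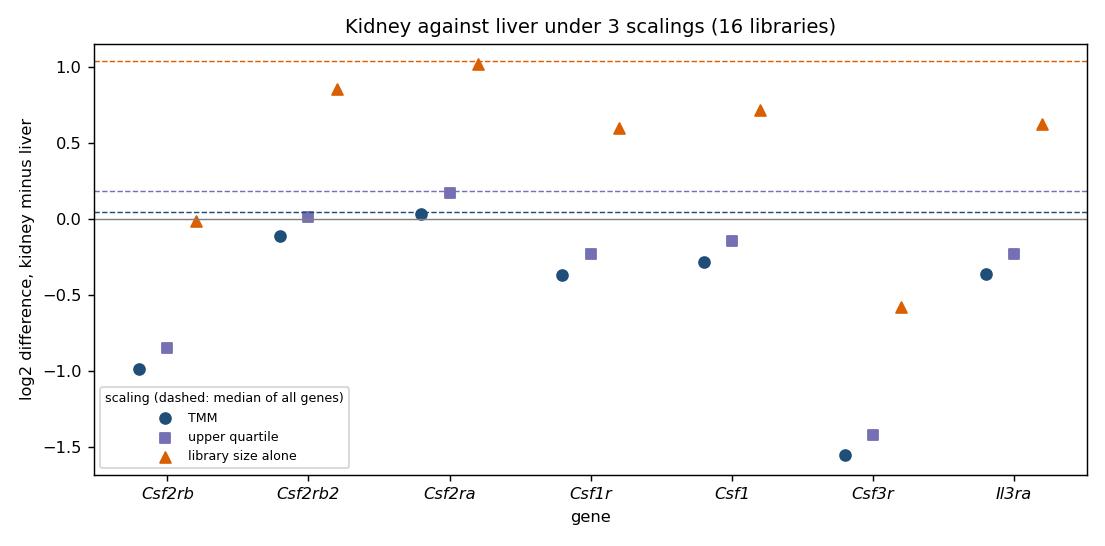
Log2 difference of each of the 7 genes between kidney and liver (kidney minus liver, vertical axis) over 16 libraries under 3 scalings, marked by symbol; dashed lines are the median of all genes under the same scaling. *Csf3r* and *Csf2rb* lie furthest below the median gene under each of the 3 scalings.

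The split of reads between the paralogs is a ratio within a library and does not depend on scaling. *Csf2rb* took 49.1% to 72.0% of the reads of both genes in the kidneys (mean 59.8% ± 7.01, SD, n = 8) and 66.9% to 80.6% in the livers (mean 74.0% ± 5.08, SD, n = 8). The difference of -14.2 percentage points had p = 0.000932 in an exact two-sided permutation test over 12870 assignments, with an adjusted p of 0.0028 over the 3 comparisons of this share. The ranges of the tissues overlapped through NT kidney 3, at 72.0% (95% exact binomial interval 68.1% to 75.6%), which lay above NT liver 4, at 66.9% (63.7% to 69.9%), and above shFos livers 3 and 4, at 69.8% and 69.1%. Replicate 4 had the lowest share of its NT group in both tissues, 49.1% (45.0% to 53.3%) in the kidney. Between shFos and NT the share differed by 1.29 percentage points for kidneys, a description, since the genes were chosen with this comparison in view. It counts among the 3 comparisons of the adjustment. For livers the share differed by -0.108 percentage points (p = 1, exact permutation). An exact test over 70 assignments cannot give a p below 0.0286. Shares refer to the reads that the counting could place on a single gene.

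**Figure D5:**
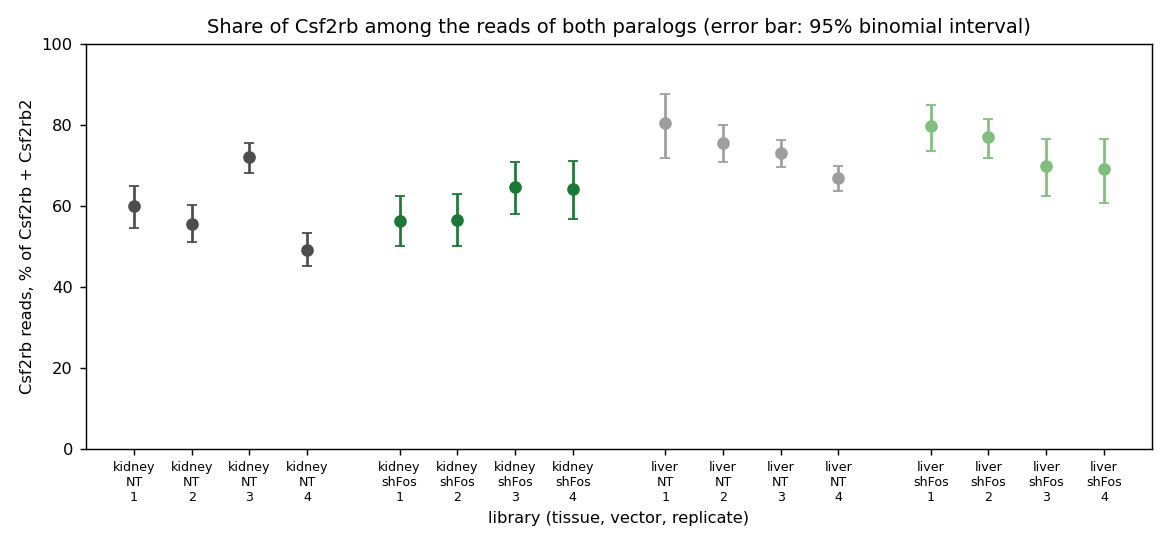
Share of *Csf2rb* among the reads of *Csf2rb* and *Csf2rb2* in each library (percent, with the exact 95% binomial interval from the reads counted, which covers counting error alone), grouped by tissue and vector. The livers lie between 66.9% and 80.6% and the kidneys between 49.1% and 72.0%. In each tissue the NT and shFos means differ by less than the SD of either group.

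Per kilobase of merged exons, the level in NT kidneys was highest for *Csf1r*, at 17.1 ± 5.45 CPM per kb (SD, n = 4), followed by *Csf2ra* at 8.68 ± 3.35 and *Csf1* at 5.96 ± 1.59. *Csf2rb2* (2.01 ± 0.645), *Csf2rb* (1.91 ± 0.551), *Il3ra* (1.57 ± 0.502) and *Csf3r* (1.51 ± 0.395) followed and did not differ from one another beyond their SD. Neither did *Csf1r* and *Csf2ra*, or *Csf2ra* and *Csf1*. These SDs are between libraries, while the genes were measured in the same libraries. Here and below, an overlap of SDs therefore does not show that genes were at the same level within a library. In shFos kidneys *Csf1r* was again highest, at 14.8 ± 3.19 CPM per kb, with *Csf1* at 4.86 ± 0.715 and *Csf2ra* at 4.73 ± 2.12, and the remaining 4 genes had means from 0.844 to 1.03. In NT livers *Csf1r* was at 25.6 ± 17.9, *Csf1* at 6.87 ± 1.44 and *Csf2ra* at 6.76 ± 2.59 CPM per kb. There *Csf2rb* (3.96 ± 2.38) and *Csf3r* (3.94 ± 1.74) came next, and *Csf2rb2* (2.45 ± 1.93) and *Il3ra* (1.48 ± 0.471) last, and no neighbours in this order differed beyond their SD. In shFos livers *Csf1r* was at 15.8 ± 4.84 CPM per kb, *Csf1* at 6.00 ± 1.18 and *Csf2ra* at 5.59 ± 0.806. *Csf3r* (2.70 ± 0.512), *Il3ra* (1.74 ± 0.237), *Csf2rb* (1.72 ± 0.643) and *Csf2rb2* (0.894 ± 0.217) followed. Among these neighbours *Csf1* and *Csf2ra*, *Il3ra* and *Csf2rb*, and *Csf2rb* and *Csf2rb2* did not differ beyond their SD. The alpha chain of the GM-CSF receptor was thus above both beta chains per length in NT kidneys, with SDs that did not overlap. Measured against its longest transcript, *Csf2rb* was at 2.83 CPM per kb in NT kidneys, above rather than below *Csf2rb2*, so the order of the paralogs depends on the gene model.

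Of the other ligands of these receptors, *Csf2* (GM-CSF), *Csf3* (G-CSF), *Il3* and *Il5* were too low to be tested in either tissue. *Il3* had 0 reads in each of the 16 libraries, which allows up to 0.138 to 0.272 CPM, *Csf2* and *Csf3* at most 3 reads and *Il5* at most 6. *Il34*, the second ligand of CSF1R, was 14.1 ± 0.532 CPM in the NT group and 10.4 ± 3.35 CPM in the shFos group of kidneys (SD, n = 4 each), with overlap (log2 fold change -0.46, edgeR adjusted p = 0.148). In the livers it was 3.01 ± 0.531 CPM and 4.07 ± 1.21 CPM (SD, n = 4 each). Hence *Csf1* and *Il34* were the measurable ligands, both of CSF1R.

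The related receptors *Il5ra*, *Kit*, *Flt3* and *Epor* gave 0 calls of 4 tested in the kidney with either tool, where DESeq2 called 8.30% of all genes lower and 11.4% higher. Among 17 kinases, adaptors and STAT proteins downstream of the receptors, 8 were lower and 9 higher in the shFos kidneys. In this list edgeR called 0, and DESeq2, against the same shares, called *Jak1* and *Jak2*, the latter the kinase bound to the beta chain, as higher and *Pik3cd* as lower. *Jak1* went from 92.2 ± 9.49 to 126 ± 18 CPM (SD, n = 4 each), with no overlap between groups. *Pik3cd* went from 13.1 ± 5.14 to 7.49 ± 0.863 CPM, although NT replicate 4, at 5.56 CPM, was below each shFos kidney. In the liver 13 of the 17 were lower, against 52.3% of all genes, the median log2 fold change was -0.25, and both tools called 0 there. The smallest unadjusted p in the liver belonged to *Stat3*, *Lyn* and *Stat5a*, with log2 fold changes of -0.27 (-0.18 without NT replicate 4), -0.34 (-0.16 without NT replicate 3) and 0.40, the last 0.195 when shFos replicate 4 was left out.

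The 12 negative regulators of cytokine receptor signalling were mostly lower in the shFos kidneys, 11 of 12 against 49.7% of all genes, and their median log2 fold change was -0.34. With edgeR 0 of these were called, and DESeq2 called *Socs3*, *Dok2* and *Dok3* lower, 3 of 12 against 8.30%, and *Cbl* higher, 1 of 12 against 11.4%. In the kidney *Socs3* was 29.1 CPM in NT replicate 4 and 12.5 to 14.4 CPM in the other NT libraries. The shFos kidneys had 8.24 to 12.1 CPM. *Dok2*, an adaptor that restrains kinase signalling in myeloid cells, was 8.91 ± 1.20 CPM in NT kidneys and 3.97 ± 1.29 CPM in shFos kidneys (SD, n = 4 each), without overlap, and *Dok3* was 9.38 ± 3.33 and 3.92 ± 1.66 CPM. *Cbl*, the ubiquitin ligase that removes activated CSF1R, was 3.15 ± 0.578 and 7.39 ± 3.36 CPM. In the liver 12 of 12 were lower, against 52.3% of all genes, with a median of -0.38, and both tools called 0. There *Socs3*, the feedback inhibitor of the G-CSF receptor, was 204 CPM in NT replicate 4 and 7.95 to 17.0 CPM in the other 7 livers, and *Dok2* had a log2 fold change of -0.90, or -0.54 without NT replicate 3.

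Among myeloid transcription factors, *Runx1* and *Cebpa* had the smallest p in the kidney, with log2 fold changes of -0.38 and 0.27, which became -0.24 when NT replicate 2 and 0.11 when shFos replicate 2 was left out, and *Cebpb*, *Runx1* and *Spi1* in the liver, with 0.42, -1.20 and -0.58. The value of *Runx1* in the liver came from NT replicate 4, at 10.7 CPM against 0.905 to 2.89 CPM in the other 7 livers, and was -0.18 without it, and that of *Spi1* was -0.20 without NT replicate 3. None of these was called by either tool. Of 10 genes listed as targets of STAT5, most of them known to be induced and *Bcl6* to be repressed by it, 9 were tested in each tissue. In the kidney 4 were lower and 5, *Bcl6* among them, higher, the median being 0.03 on the log2 scale. DESeq2 called *Pim1* and *Pim2* lower and *Bcl6* higher, against 8.30% and 11.4% of all genes, while edgeR called 0. *Pim2*, a survival kinase, was 9.72 ± 2.75 CPM in NT kidneys and 5.59 ± 0.646 CPM in shFos kidneys (SD, n = 4 each), without overlap, *Pim1* was 22.5 ± 3.63 and 14.8 ± 3.61 CPM, and *Bcl6*, a repressor, 13.9 ± 2.97 and 25 ± 7 CPM. In the liver 7 of the 9 were lower, against 52.3% of all genes, both tools called 0, and *Pim1* was 40.4 ± 15.9 CPM in the NT group and 26.8 ± 1.74 CPM in the shFos group (SD, n = 4 each). NT replicate 4 was at 64.0 CPM, and the lowest NT liver, at 29.6 CPM, was barely above the highest shFos liver, at 29.3 CPM. The log2 fold change was -0.58, or -0.29 without NT replicate 4.

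The genes most like *Csf2rb* were ranked by the Pearson correlation of log2 CPM over the 8 libraries of a tissue, which share their groups and their differences in depth. In the liver they were *Alox5ap* (r = 0.99), *Fes* (0.99), *Clec1b* (0.98), *Stk17b* (0.98) and *Card9* (0.98), with Spearman's rho from 0.95 to 1. In the kidney they were *Ptp4a3* (r = 0.97), *Cnp* (0.97), *Cdc25b* (0.96), *Mylpf* (0.96) and *Ap4s1* (0.95), with rho from 0.76 to 1. The genes most like *Csf1r* in the liver were *C1qa* (r = 0.99), *Cd300ld*, *Cd86*, *Cyth4* and *Arrb2* (0.99 each), and *C1qa* is a macrophage gene of the list above. In the kidney the genes most like *Csf1r* were *Gstm4*, *Arhgef19* and *Galr2* (r = 0.98 each), *Isoc2b* and *Acy1* (0.97 each). With 8 libraries and 13144 to 14892 genes ranked, such values describe these libraries alone.

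Promoter sequences were available for 5 of the 7 genes in the RefSeq table of GRCm38.p6 (250 bases before to 50 after the start of the gene), namely *Csf1*, *Csf2ra*, *Csf2rb2*, *Csf3r* and *Il3ra*. They were searched on both strands for the AP-1 motif TGANTCA, to which proteins of the FOS family bind, for the cyclic AMP response element TGACGTCA, and for GAGGAAG, the core of the motif of PU.1, a factor of myeloid cells. The AP-1 letters occurred in 0 of the 5 windows, against 7.81% of 32851 promoters. The cyclic AMP response element occurred in *Csf2ra*, 92 bases before the start, against 1.79% of promoters. The PU.1 core occurred in 3 of the 5, against 13.6%. A match is a description of these letters and not a measured site. The 3 promoters with a match are shown, so that the letters can be seen in place, with the matched letters in capitals, 5′ to 3′ on the strand of the gene. In *Csf2ra* (chr19:61228369-61228668, - strand) the cyclic AMP response element starts at position -92 and the PU.1 cores, which share a G, at -14 and -8. In *Csf2rb2* (chr15:78305672-78305971, - strand) the cores start at -168 and 29 and lie on the opposite strand, and in *Csf3r* (chr4:126024409-126024708, + strand) the core starts at -86.
Csf2ra: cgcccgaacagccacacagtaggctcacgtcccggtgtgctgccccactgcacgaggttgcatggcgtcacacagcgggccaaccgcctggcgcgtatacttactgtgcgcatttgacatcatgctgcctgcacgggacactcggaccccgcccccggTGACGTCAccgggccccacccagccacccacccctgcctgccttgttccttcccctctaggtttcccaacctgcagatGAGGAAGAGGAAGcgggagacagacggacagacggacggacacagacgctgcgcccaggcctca
Csf2rb2: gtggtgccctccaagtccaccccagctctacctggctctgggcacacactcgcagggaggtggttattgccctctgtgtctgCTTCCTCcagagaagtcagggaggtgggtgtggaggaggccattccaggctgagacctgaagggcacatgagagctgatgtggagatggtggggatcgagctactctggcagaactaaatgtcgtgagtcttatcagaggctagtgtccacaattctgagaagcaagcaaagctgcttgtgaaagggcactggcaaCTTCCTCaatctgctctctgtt
Csf3r: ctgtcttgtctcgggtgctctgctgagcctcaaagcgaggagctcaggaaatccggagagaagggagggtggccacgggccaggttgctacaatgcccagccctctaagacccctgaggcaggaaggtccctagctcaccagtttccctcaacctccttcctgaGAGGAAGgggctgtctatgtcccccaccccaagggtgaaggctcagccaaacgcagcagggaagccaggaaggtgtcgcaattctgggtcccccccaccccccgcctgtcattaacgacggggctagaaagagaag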

How the data were processed

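RNA of kidney and liver from mice given AAV8 shFos or NT vector was sequenced, with 16 libraries, 4 for each of the 4 groups, grouped by the sample labels. The authors trimmed reads with Trimmomatic 0.39, aligned them to mm10 with HISAT2 2.2.1 and counted them per gene with HTSeq 0.12.4 without regard to strand (versions from the submitters' processing notes). The deposited values are raw counts for 24984 genes named by symbol, of which 98.2% were found in GENCODE M21, and 5 summary lines per library that were not used as genes. Reads on no gene were 13.4% to 26.7% and ambiguous reads 1.84% to 2.64%, so paralogs, antisense partners and overlapping genes have uncertain values. Libraries held 14194543 to 18300277 counted reads per library. Reads carry no molecular identifiers and may repeat a molecule, and p-values measure the spread between these libraries.

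Each tissue was fitted alone with edgeR 4.0.16 under R 4.3.3 (filterByExpr, TMM, robust quasi-likelihood test, Benjamini-Hochberg adjustment over all genes tested, threshold 0.05), and tissues were compared in 1 fit of the 16 libraries, where groups were 4 means. CPM used TMM factors of the 16 libraries together, so they differ in scale from values normalized within a tissue, and log2 CPM used a prior count of 2. The share of *Csf2rb* was compared by exact two-sided permutation. Alternatives were DESeq2 1.42.0, upper-quartile factors, other filters (none, or a mean of 10 counts), summed paralogs, a lowess GC offset (span 0.3), the replicate number as a block, 16 libraries in 1 fit, NT libraries alone, and each library left out in turn. Library size alone, DESeq2 without NT replicate 4, and the paired forms of the interaction, the share and the NT comparison of tissues were added after data were seen. The fits were tested on simulated data. Python 3.11.15 and Biopython 1.88 were used for sequences.

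The 7 genes and the lists of other genes were chosen with earlier results of these data known, and the lists were compiled from general knowledge. Other genes named are up to 3 with the smallest p in each list and tissue and the most abundant gene of each marker list. The 5 genes most correlated with *Csf2rb* and *Csf1r*, with the 7 left out of the ranking, are also named. *Clec4f*, *Ly6g*, *F13a1*, *Alb* in single libraries, *Socs3* in the kidney and genes named for being at or near 0 reads fall outside that rule and were picked from their values.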

Additional observations from a re-analysis of the deposited data

Results flagged for a closer look

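In 68 sets of 4 libraries of the same group (each of the 7 genes, the share of *Csf2rb* and 9 marker sums), 6 held a library that lay far from the other 3 by Dixon's 95% criterion, where chance gives about 3.4. Among the receptors, *Csf2ra* was 22.7 CPM in kidney shFos replicate 1 against 9.64 to 11.3 CPM in the other shFos kidneys. *Csf1r* was 57.8 CPM in kidney shFos replicate 3 against 93.1 to 96.0 CPM in the others of its group. The neutrophil sum was 19.6 CPM in kidney NT replicate 4 against 2.56 to 3.29 CPM, and 72.9 CPM in liver shFos replicate 1 against 7.62 to 12.9 CPM. The monocyte sum was 50.4 CPM in kidney shFos replicate 2 against 31.8 to 34.3 CPM. The sum of mast cell, basophil and eosinophil markers was 1.71 CPM in liver shFos replicate 1 against 0.819 to 0.911 CPM. The causes were not tested.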

How the results depend on the processing

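The 7 kidney changes kept their sign in each of 132 combinations of gene and alternative. With a library left out they ranged from -1.14 to -0.81 for *Csf2rb*, -1.21 to -0.85 for *Csf2rb2*, -1.275 to -0.63 for *Csf2ra*, -0.42 to -0.08 for *Csf1r*, -0.40 to -0.11 for *Csf1*, -0.97 to -0.66 for *Csf3r* and -0.74 to -0.39 for *Il3ra*, moves that exceed the standard error for *Csf2rb*, *Csf2ra* and *Csf1*. The GC offset with the replicate block gave the least for *Il3ra* (-0.32) and *Csf1r* (-0.07). In the liver the 7 changes kept their sign and stayed short of an adjusted p of 0.05 in each of 132. Over all genes, edgeR's count of 0 in the kidney became 2693 with DESeq2, 2273 with DESeq2 without NT replicate 4, 994 with 16 libraries in 1 fit, 3 without a filter and, with 1 library left out, 0 to 4126 (highest without shFos replicate 1). The liver count of 0 became 37 with DESeq2 and 52 with DESeq2 without NT replicate 4. The interaction count of 0 became 343 with DESeq2 and 0 to 1246 with a library left out (highest without kidney shFos replicate 1).

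Between kidney and liver, library size alone gave -0.016 for *Csf2rb* (no longer called), 0.85 for *Csf2rb2* (called), 1.02 for *Csf2ra* (called), 0.60 for *Csf1r* (not called), 0.72 for *Csf1* (called) and 0.63 for *Il3ra* (called); it was chosen after seeing the data. Upper-quartile factors gave 0.0137 for *Csf2rb2*, and NT libraries alone gave -1.06 for *Csf2rb* (no longer called, with fewer libraries) and 0.0739 for *Il3ra*. With a library left out, *Csf2rb2* ranged from -0.29 to 0.16, *Csf2ra* from -0.13 to 0.14, *Csf1r* from -0.51 to -0.09, *Csf1* from -0.36 to -0.22 and *Il3ra* from -0.46 to -0.28, the last pair called in some of these fits. The interaction then ranged from -0.17 to 0.46 for *Csf2rb*, -0.22 to 0.69 for *Csf2rb2*, -0.11 to 0.74 for *Csf1r*, -0.22 to 0.10 for *Csf1*, -0.96 to -0.33 for *Csf2ra*, -0.57 to -0.08 for *Csf3r* and -1.02 to -0.61 for *Il3ra*. The shFos difference in the share of *Csf2rb* ranged from -2.04 to 5.57 points in the kidney and from -2.48 to 2.07 in the liver, while the tissue difference stayed between -15.9 and -12.7. The cause was not tested for any of these.

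Whether same-numbered libraries are pairs is not in the labels. Deviations of same-numbered NT and shFos libraries correlated by -0.24 to 0.11. Those of kidney and liver correlated by 0.12 to 0.33 in the NT group, each over 0.1, and by 0.04 to 0.14 in the shFos group, and 3 of 4 kidneys in each of these groups correlated best with the liver of their own number, so kidney and liver libraries may not be independent. With the replicate number as a block (within each vector group for the tissues), edgeR called 0 genes in either tissue, 0 in the interaction and 11302 between tissues, and *Csf2rb2* was at 0.0543, *Csf2ra* at -0.00567 and *Csf1* at -0.28 (called) between tissues. NT libraries alone with this block gave -0.86 for *Csf2rb* (not called), 0.0391 for *Csf2rb2* and 0.0732 for *Il3ra*. As pairs, each of 8 kidneys had a lower share of *Csf2rb* than its liver (p = 0.00781, exact sign flips over 256 assignments). Spearman in place of Pearson correlation kept at most 1 of each set of 5 most similar genes. Depth was lowest for *Fos*, *Csf2rb2*, *Il3ra* and *Csf3r*, whose libraries with the fewest reads had 17, 21, 27 and 45.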

Other observations

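Other marker lists gave these values. Lymphocyte and plasma cell markers, with *Jchain* the most abundant, summed to 11.4 CPM in kidney NT replicate 4 and to 7.22 CPM in liver NT replicate 4, the lowest of their tissues, while *Csf2rb2* was at its highest in both of these libraries. *Jchain* was higher in each shFos library than in each NT library of both tissues, with log2 fold changes of 1.22 in the kidney (adjusted p = 0.23 from edgeR) and 1.86 in the liver (adjusted p = 0.714 from edgeR). Dendritic cell markers (*Itgax* the most abundant in the kidney, *Clec9a* in the liver) summed to 8 to 32.4 CPM in NT kidneys and 19.2 to 37.6 CPM in shFos kidneys. They were 15.3 to 31.4 CPM in NT livers and 16.9 to 33.1 CPM in shFos livers. Mast cell, basophil and eosinophil markers, with *Ms4a2* the most abundant in the kidney and *Siglecf* in the liver, stayed at or below 4.05 CPM in sum in each library. Endothelial markers (*Emcn* the most abundant in the kidney, *Stab2* in the liver) were 150 to 214 CPM in NT livers and 161 to 218 CPM in shFos livers. Hepatocyte markers summed to 74.7 to 316 CPM in the kidneys and to at least 60490 CPM in each liver, where *Alb* was the most abundant. Among monocyte markers *Ccr2* had the highest mean in the kidney. *Chil3* had it in the liver through NT replicate 4 alone (71.7 CPM), and *Ccr2* was above *Chil3* in each of the other 7 livers.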
